A study of Mus musculus with 16 samples.

Results

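Bone morphogenetic proteins (BMPs), the ID transcriptional inhibitors that they induce, and the endothelial receptor pair ALK1 and endoglin were followed in 16 mouse liver cancer tumours, 1 array per tumour. The 10 genes are the ligand genes Bmp2, Bmp4 and Bmp6, the receptor genes Acvrl1 (ALK1) and Eng (endoglin), the target genes Id1, Id2 and Id3, and the inhibitory SMAD genes Smad6 and Smad7. They were taken by symbol from the 17097 genes measured, each through its brightest probe set on average, and all 10 were found. Bmp2 was selected on its own levels, which were lower in tumours given cabozantinib with and without antibody, so those differences are a description and carry no test. The other 9 genes were listed for their place in the pathway, with earlier results of these data known, so they are not a list drawn up blind. The tumours grew in the flank of male C57BL/6 mice, injected at an age of 5 weeks with Hepa1-6 cells, a mouse hepatocellular carcinoma line, in 50% Matrigel. Combination mice (n = 4) received oral cabozantinib, an inhibitor of VEGF receptors, MET and AXL, at 30 mg/kg daily together with J43, a hamster antibody against the checkpoint receptor PD-1 of T cells, in 5 doses of 10 mg/kg given 3 days apart. Cabozantinib mice (n = 5) received the inhibitor, AntiPD1 mice (n = 3) the antibody, and Placebo mice (n = 4) hamster IgG at the dose and schedule of the antibody. Whether Cabozantinib mice also received IgG is not in the labels. Comparisons with that group, and the averages that include it, may therefore also differ in IgG. Treatment began at a tumour volume of 200 to 300 cubic mm, and tumours were taken on day 14. This line was the only tumour used here, it grew under the skin and not in the liver, and it stood in mice with an intact immune system. Levels are log2 array signals, so a difference of 1 is a 2-fold change. The lowest array median was 4.92, and a signal under it cannot be told from background.

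BMP ligands bind pairs of type I and type II receptors, which phosphorylate SMAD1, SMAD5 and SMAD8, and these join SMAD4 to switch on genes such as the ID genes. SMAD6 and SMAD7 are induced by the same signal and block it, as negative feedback. In the endothelium the type I receptor ALK1, helped by the co-receptor endoglin, carries BMP9 and BMP10 signals that keep vessels quiescent, and loss of either gene causes hereditary haemorrhagic telangiectasia in humans. In the liver, endothelial BMP2 and BMP6 raise hepcidin in hepatocytes and so set iron uptake.

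The promoters of targets that varied together (Id3, Smad6), of a target that did not (Id2), of the ligand gene that passed a test for each drug (Bmp4) and of a receptor gene (Eng) are shown as the DNA that these signals read. Each runs from 250 bases before the start of the gene to 50 after it, from RefSeq's mouse build GRCm38.p6, 5′ to 3′ on the gene's strand. Capitals mark the SMAD box GTCT or its complement AGAC and the BMP-responsive box GGCGCC. Windows of 6 of the 10 genes were used here, those of Bmp4, Bmp6, Id2, Id3, Smad6 and Eng. The windows printed are Id2 (chr12:25096043-25096342, minus strand), Id3 (chr4:136143572-136143871, plus strand), Smad6 (chr9:64022010-64022309, minus strand), Bmp4 (chr14:46390620-46390919, minus strand) and Eng (chr2:32646345-32646644, plus strand).
Id2 promoter: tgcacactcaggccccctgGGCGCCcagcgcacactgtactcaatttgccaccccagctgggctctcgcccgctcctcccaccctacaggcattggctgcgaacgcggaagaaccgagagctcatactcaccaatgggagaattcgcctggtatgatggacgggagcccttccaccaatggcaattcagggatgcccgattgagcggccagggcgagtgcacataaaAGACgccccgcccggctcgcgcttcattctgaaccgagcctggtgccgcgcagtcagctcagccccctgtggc
Id3 promoter: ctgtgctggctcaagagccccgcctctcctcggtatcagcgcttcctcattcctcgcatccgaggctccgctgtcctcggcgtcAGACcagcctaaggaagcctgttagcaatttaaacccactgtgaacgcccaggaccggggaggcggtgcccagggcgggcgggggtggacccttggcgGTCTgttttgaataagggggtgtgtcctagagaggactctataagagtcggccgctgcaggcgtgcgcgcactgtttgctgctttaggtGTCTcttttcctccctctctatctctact
Smad6 promoter: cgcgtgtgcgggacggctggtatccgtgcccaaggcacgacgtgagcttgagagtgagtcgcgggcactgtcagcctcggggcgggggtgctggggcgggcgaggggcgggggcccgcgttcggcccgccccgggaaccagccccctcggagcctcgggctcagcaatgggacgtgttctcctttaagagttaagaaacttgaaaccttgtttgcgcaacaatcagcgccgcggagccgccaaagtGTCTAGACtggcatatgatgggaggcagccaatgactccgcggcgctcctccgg
Bmp4 promoter: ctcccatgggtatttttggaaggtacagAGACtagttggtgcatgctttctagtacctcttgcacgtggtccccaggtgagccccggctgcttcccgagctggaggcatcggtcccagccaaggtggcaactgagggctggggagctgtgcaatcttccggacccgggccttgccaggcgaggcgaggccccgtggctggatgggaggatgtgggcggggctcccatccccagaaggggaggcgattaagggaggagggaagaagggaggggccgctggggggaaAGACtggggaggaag
Eng promoter: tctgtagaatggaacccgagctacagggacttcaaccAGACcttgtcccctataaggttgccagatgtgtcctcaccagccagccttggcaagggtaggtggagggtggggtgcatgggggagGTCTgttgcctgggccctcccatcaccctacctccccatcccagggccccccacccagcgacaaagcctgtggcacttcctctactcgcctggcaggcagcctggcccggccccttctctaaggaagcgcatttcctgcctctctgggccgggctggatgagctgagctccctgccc
Of 32851 mouse promoter windows of this length, 88% held GTCT or AGAC, so its presence in all 6 windows is near the background. The Id2 window held 1 GGCGCC, found in 11.9% of all windows. The Smad6 window held 1 copy of the palindrome GTCTAGAC, which joins GTCT and AGAC and was found in 0.213% of all windows. These are matches of letters on both strands, not measured binding.

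The tumours differed in the host tissue they contained. The 12 measured hepatocyte and tumour genes averaged between 9.57 and 11.01 on every array, high as for a liver cancer line. Skeletal muscle genes were highest in Combination 4, Cabozantinib 4 and AntiPD1 2 (list means of 11.95, 10.76 and 11.21), and Cabozantinib 3 was high too, at 8.66, against at most 7.43 in the other tumours. Adipocyte genes were highest in Combination 1 and Cabozantinib 2 (list means of 8.21 and 9.15), and Combination 2 was high too, at 7.62, against at most 6.37 in the others. Fits were run without the 3 and the 4 tumours high in muscle genes and without the 2 and the 3 high in adipocyte genes. The hybridisation controls of the arrays averaged 9.88 to 10.67 in Cabozantinib and 9.04 to 10.05 in Placebo. Their part in the results was not tested, and the members' values without these tumours are given where a call changed. The p values measure the spread between these tumours only, and with 3 to 5 arrays per group their precision is limited.

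Bmp2, a ligand made by endothelial cells of the liver and by many other tissues, was the gene chosen for its lower level with the inhibitor. Its level was 4.90, 4.82, 5.05 and 5.20 in the Combination tumours and 4.62, 4.48, 4.87, 4.59 and 4.99 in the Cabozantinib tumours. It was 6.32, 7.01 and 7.06 in the AntiPD1 tumours and 6.49, 5.73, 5.64 and 5.47 in the Placebo tumours. All 9 tumours given cabozantinib lay below all 7 without it, which restates how the gene was chosen. How many other genes separate the tumours in this way was not counted. The same holds for every separation of groups given below for the other members, so none of these sets a member apart from other genes. The difference from Placebo was -0.84 in Combination and -1.13 in Cabozantinib, and that of Combination from AntiPD1 was -1.81 (log2), corresponding to levels 1.79-fold, 2.18-fold and 3.51-fold lower. Averaged over antibody the inhibitor's difference was -1.47. The Cabozantinib mean of 4.71 ± 0.211 (SD, n = 5) lies under the lowest array median, so background limits the size of these differences.

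Bmp2 was chosen on the inhibitor's differences and not on the antibody's. Both are built from the same 4 group means, so the antibody's test of Bmp2 is not independent of that choice. Averaged over cabozantinib, Bmp2 rose by 0.62 ± 0.15 with the antibody (SE; limma adjusted p = 0.017), and all 10 genes were tested in this comparison. Of the 10, 3 rose and 1 fell, where 18% of all genes passed, 8.33% higher and 9.66% lower. The pairwise values were 0.97 ± 0.23 in AntiPD1 against Placebo (adjusted p = 0.119) and 0.28 ± 0.20 in Combination against Cabozantinib (adjusted p = 0.425). In AntiPD1, 2 of 3 tumours lay above every Placebo tumour, and Placebo 1, at 6.49, lay above AntiPD1 1. The Combination and Cabozantinib levels lie near the background, which limits the second of these. The interaction of the drugs asks whether the inhibitor's difference was the same with antibody, and for Bmp2 it is built from the differences that chose the gene, so its value of -0.68 is a description. By limma, 0 of the 9 other members and 0% of all genes passed for the interaction, while 0 of 9 members and 2.57% of all genes had an unadjusted p under 0.05. The averaged rise of Bmp2 had an adjusted p of 0.0587 without AntiPD1 2, of 0.0802 and 0.0588 without the 3 and the 4 tumours high in muscle genes, and of 0.0915 without the 3 high in adipocyte genes. With array weights the difference in AntiPD1 against Placebo passed (0.78, limma adjusted p = 0.0352), where 1822 of 17097 genes did, against 5 at equal weight. The weights were 3.23 for AntiPD1 1, 0.87 for AntiPD1 2 and 0.85 for AntiPD1 3, so the weighted group leaned on AntiPD1 1.

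Endothelial markers moved in the same comparisons. Of 25 endothelial genes with the members left out, 14 fell with cabozantinib averaged over antibody, with a list median of -0.67, where 2.12% of all genes passed. With the antibody 15 rose and 1 fell, with a list median of 0.69, where 8.33% of all genes were called higher. The antibody's count was 7 of 25 without AntiPD1 2 and 0 of 25 without the 3 tumours high in adipocyte genes (20 at an unadjusted p under 0.05 by limma). Of all genes 3.52% and 0% passed in these fits, and the share at an unadjusted p was not counted. The mean of the list per tumour was 6.16 to 6.37 in Combination, 5.78 to 6.27 in Cabozantinib, 6.99 to 7.74 in AntiPD1 and 6.03 to 6.82 in Placebo, and 7, 9, 0 and 5 of its 25 genes averaged less than 4.92 in these groups. Bmp2 minus this list mean was -1.30 ± 0.194 in Combination (SD, n = 4), -1.24 ± 0.328 in Cabozantinib (SD, n = 5), -0.483 ± 0.487 in AntiPD1 (SD, n = 3) and -0.601 ± 0.615 in Placebo (SD, n = 4). On that scale the Combination tumours, between -1.55 and -1.08, overlapped the Placebo tumours, between -1.18 and 0.116. In whole tumours, fewer cells of a type and less RNA per cell cannot be told apart.

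**Figure D1:**
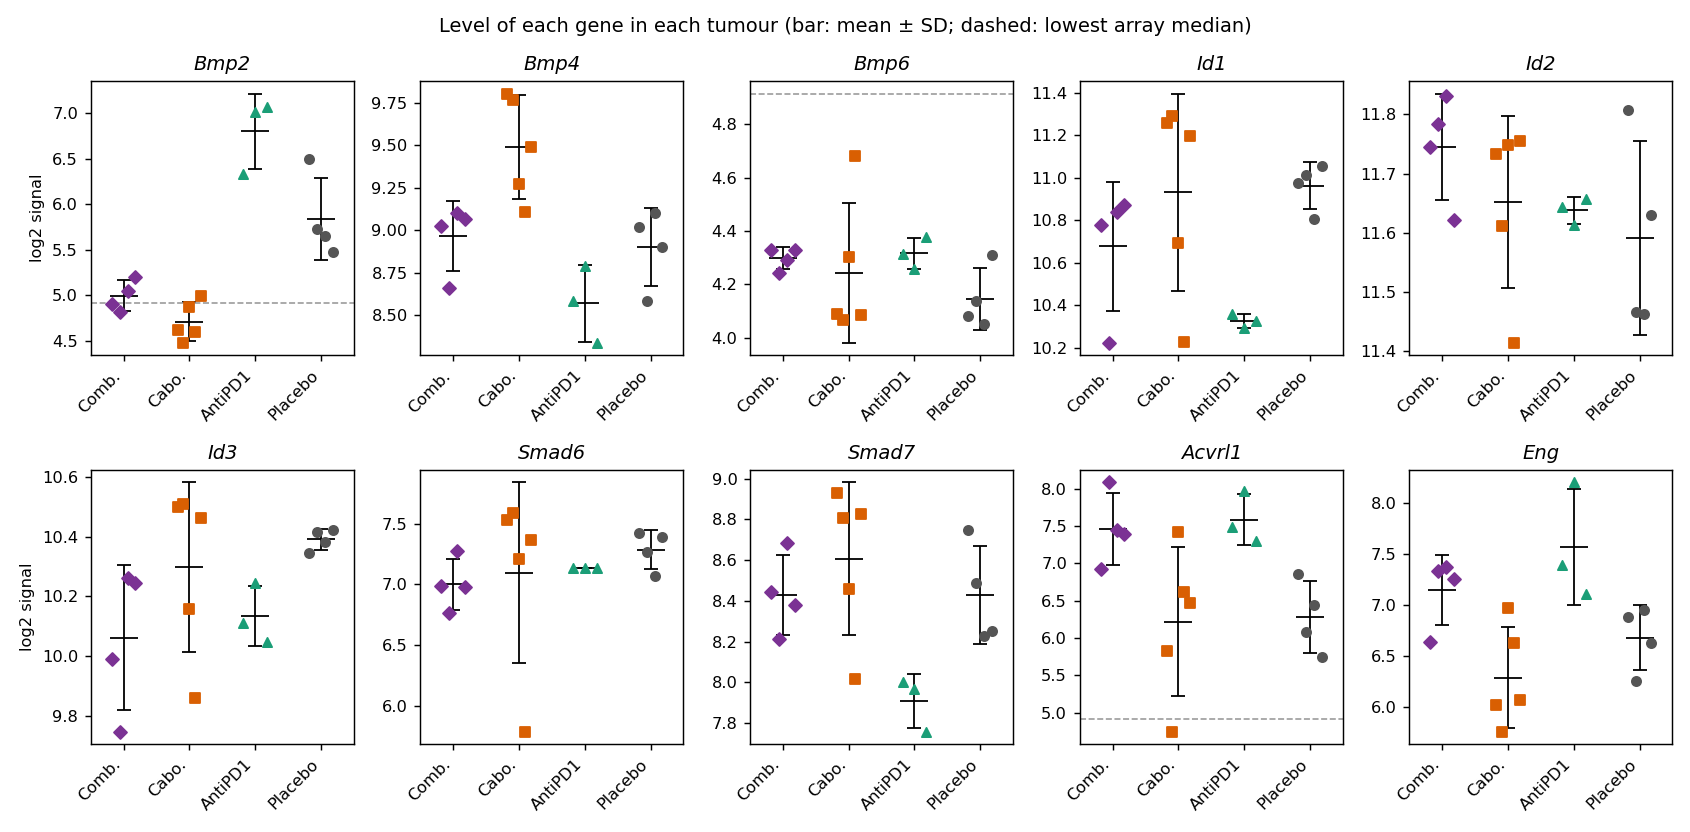
Level of each of the 10 genes in each tumour, as log2 signal on the vertical axis, for Combination (Comb., diamonds), Cabozantinib (Cabo., squares), AntiPD1 (triangles) and Placebo (circles), with the mean and SD as bars and the lowest array median, 4.92, as a dashed line where it is in range. Bmp2 lay between 4.48 and 5.20 in the 9 tumours given cabozantinib and between 5.47 and 7.06 in the 7 others, and Bmp6 lay under the dashed line in all 16.

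Bmp4, a ligand made by stromal, endothelial and some tumour cells, went the other way from Bmp2. Its level was 9.03, 8.66, 9.10 and 9.07 in Combination tumours and 9.81, 9.77, 9.28, 9.11 and 9.49 in Cabozantinib tumours. It was 8.59, 8.79 and 8.34 in AntiPD1 tumours and 9.02, 8.58, 9.10 and 8.90 in Placebo tumours. All 5 Cabozantinib tumours lay above every tumour of the other groups, although Cabozantinib 4 lay close to the highest Placebo tumour. Averaged over antibody, Bmp4 rose by 0.49 ± 0.12 with cabozantinib (SE; limma adjusted p = 0.049), as 1 of 9 members tested, where 2.12% of all genes passed. Averaged over cabozantinib, it fell by 0.43 ± 0.12 with the antibody (adjusted p = 0.0276).

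The pairwise Bmp4 differences did not pass with all 16 tumours at equal weight. They were 0.59 ± 0.16 in Cabozantinib against Placebo (limma adjusted p = 0.135, 5 of 5 tumours above every Placebo tumour) and -0.53 ± 0.16 in Combination against Cabozantinib (adjusted p = 0.0911, 4 of 4 below every Cabozantinib tumour). Combination against Cabozantinib passed for Bmp4 with array weights (adjusted p = 0.0377), without Cabozantinib 3 (-0.58, adjusted p = 0.0412) and without the 4 tumours high in muscle genes (-0.76, adjusted p = 0.0088). Combination differed from AntiPD1 by 0.39 ± 0.18 (adjusted p = 0.679). The Combination tumours, which received both drugs, lay at the level of Placebo, with means of 8.97 ± 0.205 and 8.90 ± 0.228 (SD, n = 4 each). The rise with cabozantinib was close to the threshold and was kept in 4 of the 16 fits that left out 1 tumour each, with adjusted p between 0.0247 and 0.156. It was lost without the 2 or the 3 tumours high in adipocyte genes (adjusted p = 0.106 and 0.107). The fall with the antibody was lost without Placebo 4, Combination 2 or any of the 3 AntiPD1 tumours (adjusted p between 0.0502 and 0.0622), and without the 2 or the 3 tumours high in adipocyte genes (adjusted p = 0.0593 and 0.162).

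Bmp6, the other hepcidin-inducing ligand, gave no usable level. It lay between 4.05 and 4.68 and under its own array's median in all 16 tumours. Its differences were 0.04 ± 0.08 for cabozantinib (limma adjusted p = 0.866) and 0.11 ± 0.08 for the antibody (adjusted p = 0.367), and at this signal no change could be measured.

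Acvrl1, which encodes ALK1, and Eng, which encodes its co-receptor, rose with the antibody. Acvrl1 was 6.92, 8.08, 7.44 and 7.39 in Combination tumours and 5.83, 4.75, 7.42, 6.61 and 6.46 in Cabozantinib tumours. It was 7.49, 7.96 and 7.30 in AntiPD1 tumours and 6.86, 6.08, 6.44 and 5.74 in Placebo tumours. Every Combination and every AntiPD1 tumour lay above every Placebo tumour, whereas Cabozantinib tumours spread over a wider range, from 4.75 to 7.42. Averaged over cabozantinib, Acvrl1 rose by 1.27 ± 0.32 (SE; limma adjusted p = 0.019), a 2.42-fold higher level. The pairwise differences were 1.30 ± 0.48 in AntiPD1 against Placebo, 1.18 ± 0.44 in Combination against Placebo and 1.24 ± 0.42 in Combination against Cabozantinib (limma adjusted p = 0.183, 0.0957 and 0.113). AntiPD1 against Placebo passed with array weights (adjusted p = 0.0324). Combination against Placebo passed with array weights, in a fit of those 2 groups, without Cabozantinib 2 and without the 2 tumours high in adipocyte genes (adjusted p = 0.0373, 0.0343, 0.0369 and 0.0386). Combination against Cabozantinib passed without Cabozantinib 3 and without the 4 tumours high in muscle genes (1.54 and 1.80, adjusted p = 0.0243 and 0.0141). With cabozantinib the averaged difference was -0.10 ± 0.32 (adjusted p = 0.926, 95% interval -0.77 to 0.58), and it turned positive without Cabozantinib 2, at 0.09.

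Eng showed a similar order. It was 6.64, 7.33, 7.37 and 7.26 in Combination tumours and 6.02, 5.76, 6.97, 6.63 and 6.07 in Cabozantinib tumours. It was 7.40, 8.20 and 7.10 in AntiPD1 tumours and 6.88, 6.25, 6.95 and 6.63 in Placebo tumours. Every AntiPD1 tumour lay above every Placebo tumour, and Combination 1 lay among the Placebo tumours. Eng rose by 0.87 ± 0.20 with the antibody averaged over cabozantinib (SE; limma adjusted p = 0.0158), a 1.83-fold higher level, and 6 of the 7 tumours given antibody lay above all 9 without it. The difference with cabozantinib was -0.41 ± 0.20 (adjusted p = 0.351). The pairwise values were 0.89 ± 0.31 in AntiPD1 against Placebo, 0.47 ± 0.28 in Combination against Placebo, -0.39 ± 0.27 in Cabozantinib against Placebo and 0.86 ± 0.27 in Combination against Cabozantinib (limma adjusted p = 0.168, 0.297, 0.595 and 0.0977). For Eng the first of these passed with array weights (adjusted p = 0.0486), and the last with array weights, without Cabozantinib 3 and without the 4 tumours high in muscle genes (adjusted p = 0.0367, 0.0253 and 0.00641). The second probe sets of Acvrl1 and Eng were dimmer, with means of 5.67 and 5.88, and had antibody differences of 0.58 ± 0.13 and 0.60 ± 0.15 (SE). AntiPD1 against Placebo gave 0.59 ± 0.19 and 0.80 ± 0.23 there, and Combination against Cabozantinib 0.57 ± 0.17 and 0.39 ± 0.20. On the second Eng probe set Combination 1, 3 and 4, at 5.72, 5.66 and 5.96, lay below Placebo 3, at 6.06. With the brightest probe sets and without AntiPD1 2 the limma adjusted p for the antibody was 0.0622 for Acvrl1 and 0.0541 for Eng, and without the 3 tumours high in muscle genes that of Acvrl1 was 0.0614. Without the 3 high in adipocyte genes it was 0.0836 for both.

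The name endothelial was checked for these receptors against marker lists. Over the 16 tumours Acvrl1 varied with 13 monocyte and macrophage genes (Pearson r = 0.942, Spearman coefficient 0.953, and r = 0.882 after group means were removed) more closely than with the 25 endothelial genes (r = 0.535, Spearman coefficient 0.485, and 0.361). Without the 2 tumours farthest from the median of each list, r was 0.941 and 0.369. Eng varied with both lists, at r = 0.831 and Spearman coefficient 0.882 for macrophage genes and r = 0.818 and Spearman coefficient 0.753 for endothelial genes (0.753 and 0.776 after group means were removed). Both receptors also varied with 12 fibroblast genes, Acvrl1 at r = 0.846 and Eng at r = 0.813 (0.725 and 0.81 after group means were removed), and with 3 Y-linked genes, at r = 0.927 and 0.853. Among the 11 marker lists, macrophage genes had the highest r with Acvrl1. All 13 macrophage genes rose with the antibody (list median 1.25, against -0.03 over all genes), where 8.33% of all genes were called higher, and their mean per tumour was 10.12 to 10.83 in Combination, 7.67 to 10.13 in Cabozantinib, 10.15 to 10.53 in AntiPD1 and 8.20 to 9.60 in Placebo. Fibroblast genes rose in 7 of 12 and Y-linked genes in 3 of 3. Without AntiPD1 2 the counts were 3 of 13 macrophage, 0 of 12 fibroblast and 2 of 3 Y-linked genes, and without the 3 tumours high in muscle genes 8 of 13, 0 of 12 and 2 of 3. With all 4 such tumours left out they were 13 of 13, 8 of 12 and 3 of 3, and without the 3 high in adipocyte genes 0 of each passed by limma, with 13, 8 and 3 at an unadjusted p under 0.05. Of all genes 3.52%, 9.43%, 24.3% and 0% passed in these fits, in the same order. The last fit therefore cannot set the lists against other genes, and its share of all genes at an unadjusted p was not counted. Acvrl1 is called here a gene that followed macrophage markers, and the part of each cell type in its level was not tested.

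The same measure was used to find the genes most like Acvrl1 and Bmp2 among 10132 genes with a mean above every array median. For Acvrl1 they were Arhgap25, Tbxas1, the thromboxane synthase of platelets and macrophages, Rnaset2a, Sdc3 and Arhgef2, with r between 0.969 and 0.976 over the 16 tumours. Their r stayed between 0.937 and 0.968 after group means were removed. For Bmp2 they were Slc40a1, the iron exporter ferroportin, Esm1, a marker of endothelial tip cells, Apln, the ligand of the apelin receptor, Ahsa1, an HSP90 cochaperone, and Cdh5, the junction protein VE-cadherin. Their r lay between 0.881 and 0.909 and fell to between -0.268 and 0.332 after group means were removed, so the likeness to Bmp2 lay between the groups more than within them. The differences between groups include those that chose Bmp2, so this likeness is a description. Bmp2 was above its own array's median in 0 of 5 Cabozantinib and 2 of 4 Combination tumours, which limits the r within groups.

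**Figure D2:**
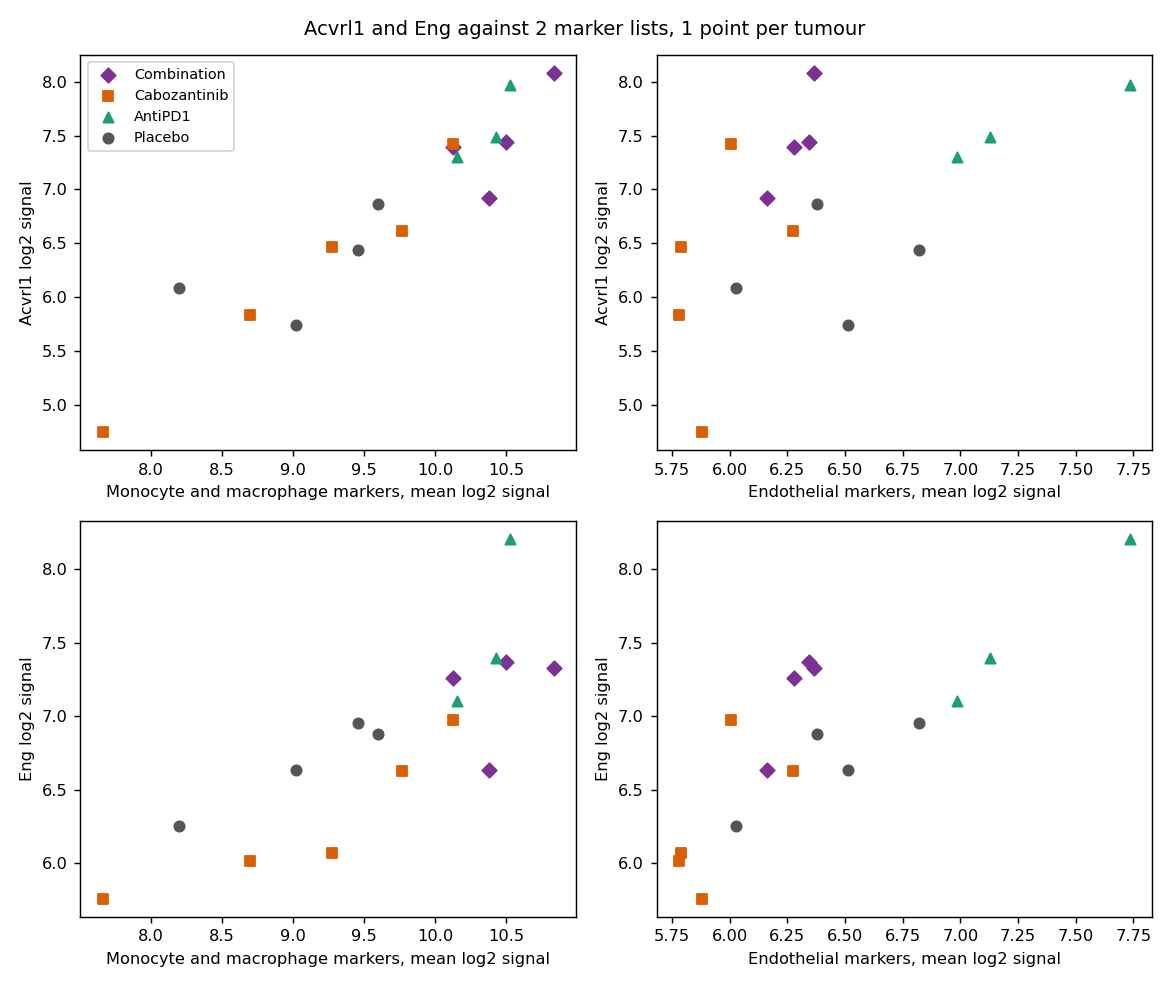
Log2 signal of Acvrl1 (top) and Eng (bottom) in each of the 16 tumours against the mean log2 signal of 13 monocyte and macrophage genes (left) and 25 endothelial genes (right), with Combination as diamonds, Cabozantinib as squares, AntiPD1 as triangles and Placebo as circles. Acvrl1 lies along a line with the macrophage genes (r = 0.942) and scatters against the endothelial genes (r = 0.535), while Eng varies with both (r = 0.831 and 0.818).

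Id1, the target most used as a readout of BMP signalling, was an abundant signal. It was 10.78, 10.22, 10.84 and 10.87 in Combination tumours and 11.26, 11.29, 10.69, 10.22 and 11.196 in Cabozantinib tumours. It was 10.36, 10.29 and 10.33 in AntiPD1 tumours and 10.98, 11.01, 10.80 and 11.06 in Placebo tumours. All 3 AntiPD1 tumours lay below every Placebo tumour, and the Cabozantinib group was split, with 3 tumours above and 2 below all Placebo tumours. The antibody's averaged difference was -0.45 ± 0.15 (SE; limma adjusted p = 0.0501), just outside the threshold. It was -0.64 ± 0.22 in AntiPD1 against Placebo, -0.29 ± 0.21 in Combination against Placebo and -0.26 ± 0.20 in Combination against Cabozantinib (adjusted p = 0.171, 0.39 and 0.469). For Id1 AntiPD1 against Placebo passed with array weights (adjusted p = 0.0293) and in a fit of those 2 groups (adjusted p = 0.0481). Cabozantinib's averaged difference was 0.16 ± 0.15 (adjusted p = 0.659).

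Id3, a relative of Id1 with overlapping function, followed it. Id3 was 9.99, 9.75, 10.26 and 10.25 in Combination tumours and 10.50, 10.51, 10.16, 9.86 and 10.46 in Cabozantinib tumours. It was 10.11, 10.24 and 10.05 in AntiPD1 tumours and 10.35, 10.42, 10.38 and 10.42 in Placebo tumours. Every Combination and every AntiPD1 tumour lay below every Placebo tumour, but the differences of -0.33 ± 0.14 and -0.26 ± 0.15 had adjusted p values of 0.136 and 0.361 by limma. The first of these passed without the 4 tumours high in muscle genes (-0.39, adjusted p = 0.0269). Combination against Cabozantinib gave -0.24 ± 0.13 (adjusted p = 0.311). The antibody's averaged difference was -0.25 ± 0.10 (adjusted p = 0.0998), and that of cabozantinib -0.08 ± 0.10 (adjusted p = 0.759). Id2, which BMP and other signals induce, had the highest level of the 10 genes and little spread, from 11.41 to 11.83, with averaged differences of 0.08 ± 0.07 for cabozantinib (adjusted p = 0.58) and 0.07 ± 0.07 for the antibody (adjusted p = 0.496). The dimmest of the 3 Id2 probe sets (mean 8.16) had a cabozantinib difference of 0.36 ± 0.09, against 0.08 for the brightest, so the probe sets of Id2 did not give the same size.

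The inhibitory SMAD genes resembled Id1. Smad7 was 8.44, 8.21, 8.68 and 8.38 in Combination tumours and 8.93, 8.80, 8.46, 8.02 and 8.83 in Cabozantinib tumours. It was 8.004, 7.97 and 7.76 in AntiPD1 tumours and 8.75, 8.49, 8.23 and 8.25 in Placebo tumours. All 3 AntiPD1 tumours lay below every Combination and every Placebo tumour. The averaged differences were -0.35 ± 0.13 for the antibody and 0.35 ± 0.13 for cabozantinib (SE; limma adjusted p = 0.0729 and 0.188). The pairwise ones were -0.52 ± 0.19 in AntiPD1 against Placebo, 0.52 ± 0.19 in Combination against AntiPD1 and -0.18 ± 0.17 in Combination against Cabozantinib (adjusted p = 0.187, 0.535 and 0.575). Smad6 was 6.99, 6.76, 7.27 and 6.98 in Combination tumours and 7.53, 7.59, 7.20, 5.79 and 7.37 in Cabozantinib tumours. It was 7.14, 7.13 and 7.14 in AntiPD1 tumours and 7.42, 7.26, 7.06 and 7.39 in Placebo tumours. Cabozantinib 4 lay more than 1 log2 unit under the other 4 tumours of its group, and the averaged Smad6 differences were -0.12 ± 0.21 for the antibody and -0.16 ± 0.21 for cabozantinib (adjusted p = 0.734 and 0.773).

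Cabozantinib 4, which like Cabozantinib 3 was high in muscle genes, was lowest in its group for Id1, Id2, Id3, Smad6 and Smad7 and decided the calls of several of them. Without it the antibody's averaged differences were -0.54 for Id1, -0.30 for Id3, -0.29 for Smad6 and -0.42 for Smad7, with limma adjusted p values of 0.0117, 0.0221, 0.0286 and 0.0145. Then 9 of 10 members passed, against 4 of 10 with it, and 22.1% of all genes passed, against 18%. The 9 include Bmp6 (0.17, adjusted p = 0.0368), whose signal lay under the array median throughout and is not read as a change. Without the 3 tumours highest in muscle genes Id1, Id3 and Smad7 also passed, at -0.56, -0.36 and -0.43, and 5 of 10 members were called (Bmp4, Id1, Id3, Smad7 and Eng) where 9.43% of all genes were. Without the 4 high in muscle genes 8 of 10 were called, all but Bmp2 and Id2 and again with Bmp6 at background, where 24.3% of all genes were. In that fit Bmp4, Id1, Id3, Smad6, Acvrl1 and Eng also passed in Combination against Cabozantinib. There 3612 of 17097 genes passed in that comparison, against 1 with all 16 tumours. The 4 tumours were chosen after seeing the data. Without Cabozantinib 3 alone Id1 passed for the antibody (-0.48, adjusted p = 0.0356). Without AntiPD1 2, 0 of 10 members passed by limma, 7 had an unadjusted p under 0.05, and 3.52% of all genes passed. Without the 2 tumours high in adipocyte genes 3 of 10 passed (Bmp2, Acvrl1 and Eng), and 10.5% of all genes did. Without the 3, 0 of 10 passed by limma, 4 had an unadjusted p under 0.05, and 0% of all genes passed. The share of all genes at an unadjusted p under 0.05 was not counted in these fits, so the 7 and the 4 cannot be set against it. Smad7 rose by 0.42 with cabozantinib averaged over antibody when Cabozantinib 4 was left out (adjusted p = 0.0447).

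**Figure D3:**
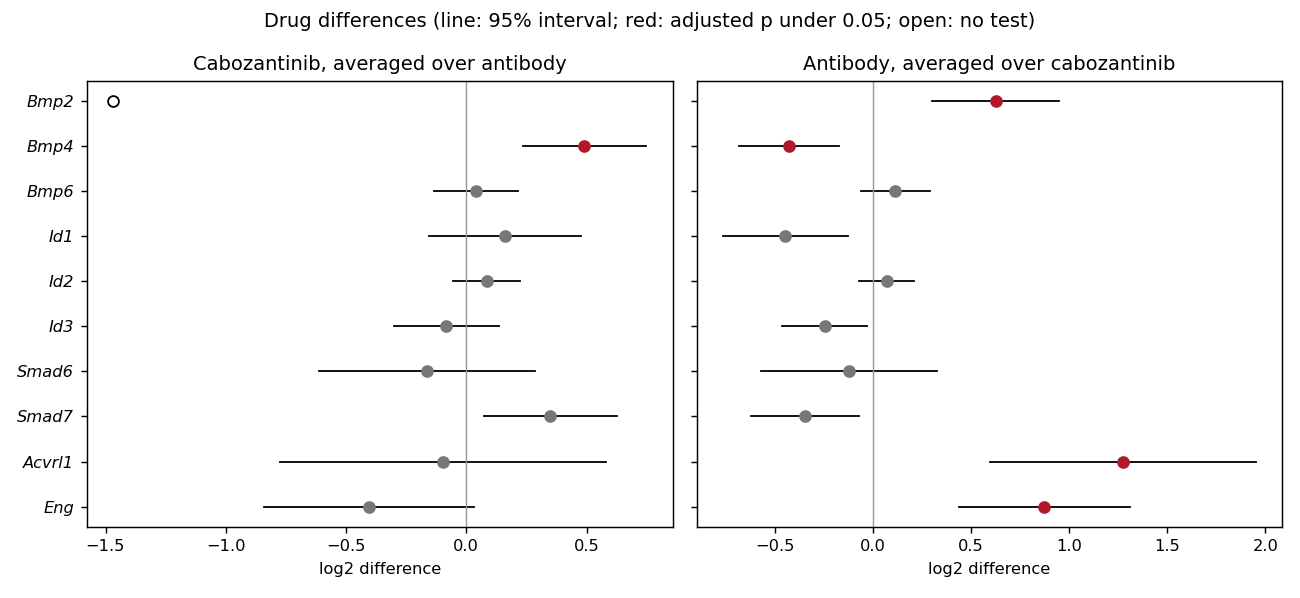
Log2 difference of each gene for cabozantinib averaged over antibody (left) and for the antibody averaged over cabozantinib (right), with lines for 95% intervals, red points for adjusted p under 0.05 and an open point for Bmp2 where no test was made. With cabozantinib Bmp4 (0.49) is red, and with the antibody Bmp2 (0.62), Acvrl1 (1.27), Eng (0.87) and Bmp4 (-0.43) are red.

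Id1, Id3, Smad6 and Smad7 varied together from tumour to tumour. Over 16 tumours Id1 and Id3 had a Pearson r of 0.857 and a Spearman coefficient of 0.932, and Id1 and Smad7 an r of 0.857 and a Spearman coefficient of 0.826. Id1 and Smad6 had an r of 0.691 and a Spearman coefficient of 0.815. After group means were removed these r were 0.929, 0.822 and 0.873, and without Cabozantinib 4 they were 0.83, 0.845 and 0.76. Without the 2 tumours whose Id1 was farthest from its median they were 0.795, 0.875 and 0.688. Id2 stood apart from Id1, with an r of 0.164 and a Spearman coefficient of 0.0235. After group means were removed the r of Id2 was 0.375 with Id1, 0.261 with Id3, 0.655 with Smad6 and 0.642 with Smad7. Without Cabozantinib 4, with group means kept, these were -0.042, -0.330, 0.0345 and 0.355. Bmp4 varied with Smad7 (r = 0.777, Spearman coefficient 0.656) and with Id1 (r = 0.684, Spearman coefficient 0.479), while Bmp2 and Id1 had an r of -0.385 and a Spearman coefficient of -0.191. Id1 and Id3 were lower where macrophage genes (r = -0.754 and -0.732), T and NK genes (-0.78 and -0.784), fibroblast genes (-0.773 and -0.721) and Y-linked genes (-0.812 and -0.766) were higher, and higher where hepatocyte and tumour genes were higher (r = 0.601 and 0.717). These values share their arrays and the cell makeup of each tumour, so they describe these 16 tumours and no p is given.

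**Figure D4:**
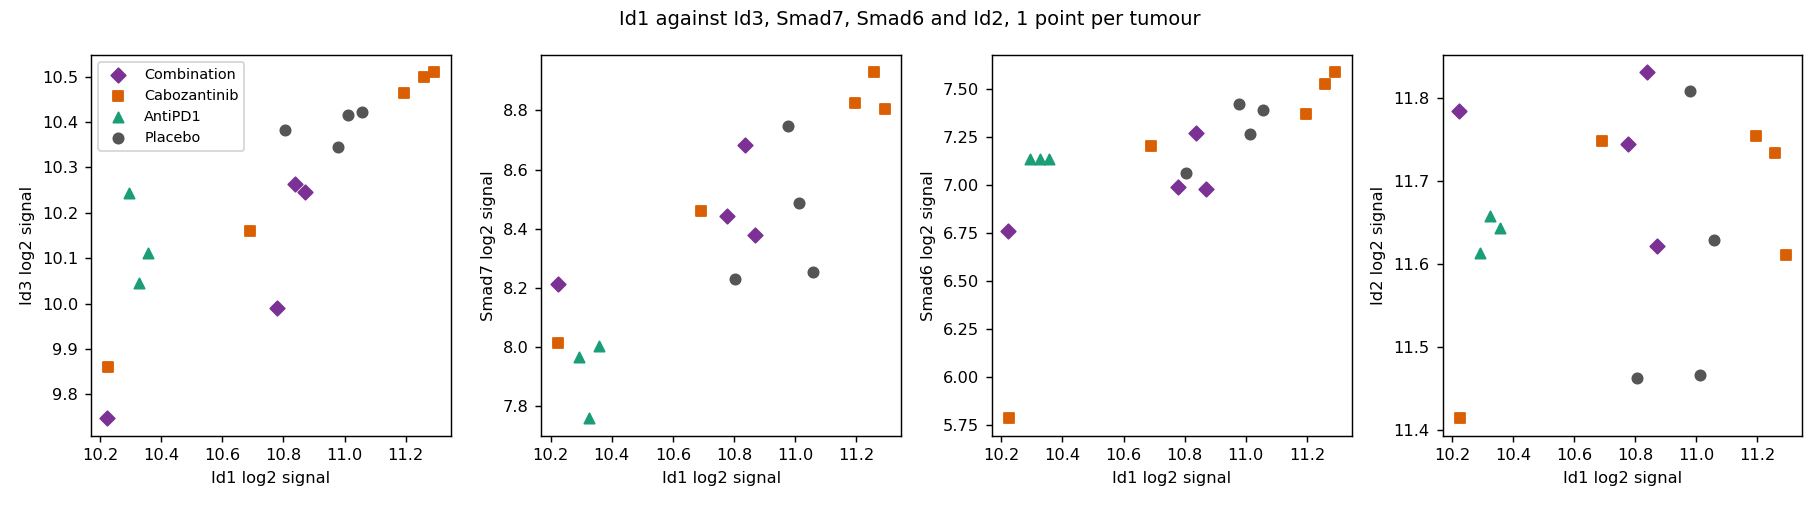
Log2 signal of Id3, Smad7, Smad6 and Id2 (vertical axes, left to right) against that of Id1 (horizontal axes) in each of the 16 tumours, with Combination as diamonds, Cabozantinib as squares, AntiPD1 as triangles and Placebo as circles. Id3, Smad7 and Smad6 increase with Id1 (r = 0.857, 0.857 and 0.691), Cabozantinib 4 is the lowest Smad6 point at 5.79, and Id2 shows no such relation (r = 0.164).

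No member passed in a pairwise comparison with all 16 tumours at equal weight. By limma 0 of 9 members tested passed in Combination against Placebo, where 10.4% of all genes did, 0 of 9 in Cabozantinib against Placebo (0.257%) and 0 of 10 in AntiPD1 against Placebo (0.0292%). Likewise 0 of 10 passed in Combination against Cabozantinib (0.00585%) and 0 of 9 in Combination against AntiPD1 (0.234%). Except in Combination against Placebo, so few genes passed that these counts cannot set the members against other genes. At an unadjusted p under 0.05 the counts were 2 of 9, 1 of 9, 5 of 10, 3 of 10 and 2 of 9, in the same order, where 29.2%, 13%, 19.2%, 22.5% and 7.21% of all genes were. Array weights called 4 of 10 members in AntiPD1 against Placebo (Bmp2, Id1, Acvrl1 and Eng), 1 of 9 in Combination against Placebo (Acvrl1) and 2 of 10 in Combination against Cabozantinib (Bmp4 and Eng). With these weights 1822, 3059 and 1441 of 17097 genes passed, in the same order, against 5, 1771 and 1 at equal weight. In the averaged comparisons 1 of 9 passed for cabozantinib and 4 of 10 for the antibody, against 2.12% and 18% of all genes.

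The rest of the pathway was described with gene lists that leave the 10 members out. Their counts are read against 18% of all genes called for the antibody, 2.12% for cabozantinib and 10.4% in Combination against Placebo. For the averaged comparisons the share of all genes at an unadjusted p under 0.05 is not given, so counts at that p have no such share beside them. Among 13 BMP and GDF ligand genes, Gdf10 rose with the antibody by 2.02 ± 0.41 and Bmp7 fell by 0.71 ± 0.16 (SE; limma adjusted p = 0.0115 and 0.014). Gdf10 encodes a BMP3-related ligand, and Bmp7 a ligand of ALK2. In Combination against Placebo they differed by 2.96 ± 0.56 and -1.02 ± 0.22 (adjusted p = 0.015 and 0.0187), with Gdf10 at a mean of 7.55 in Combination and 4.59 in Placebo, which is under the lowest array median. With cabozantinib 0 of 13 passed by limma and 2 had an unadjusted p under 0.05. Among 9 TGF-beta and activin ligand genes, Tgfb3 rose with the antibody by 1.24 ± 0.37 (adjusted p = 0.0347). Inhba, the subunit of activin A, rose with cabozantinib by 1.49 ± 0.35 (adjusted p = 0.043) and in Combination against Placebo by 2.39 ± 0.49 (adjusted p = 0.0177). The rise of Inhba with cabozantinib was kept in 3 of the 16 fits that left out 1 tumour each and was lost without the 3 tumours high in muscle genes (adjusted p = 0.0611), and that of Tgfb3 was kept in 7 of 16.

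Of 14 other receptor genes, 2 rose with the antibody, the TGF-beta receptor genes Tgfbr2 (0.45 ± 0.14) and Tgfbr3 (1.15 ± 0.28), with limma adjusted p values of 0.0434 and 0.018. Tgfbr3, a co-receptor related to endoglin, also rose in Combination against Placebo, by 1.58 ± 0.39 (adjusted p = 0.0291). With cabozantinib 0 of 14 passed by limma, and 4 had an unadjusted p under 0.05. Of 12 SMAD genes and regulators, 4 fell and 1 rose with the antibody. Smad5, a carrier of BMP signals, fell by 0.37 ± 0.06, Smad2 and Smad3, carriers of TGF-beta signals, by 0.35 ± 0.08 and 0.36 ± 0.11, and the ubiquitin ligase gene Smurf2 by 0.19 ± 0.05 (adjusted p = 0.0101, 0.014, 0.0453 and 0.0236). Ski, a corepressor of SMADs, rose by 0.24 ± 0.08 (adjusted p = 0.0431). In Combination against Placebo Smad1, Smad2 and Smad5 fell by 0.34 ± 0.08, 0.38 ± 0.11 and 0.48 ± 0.09, and Ski rose by 0.42 ± 0.10 (adjusted p = 0.0208, 0.0388, 0.0147 and 0.0298). Smurf1 was the only gene of this list to pass with cabozantinib, rising by 0.27 ± 0.06 (adjusted p = 0.0252), kept in 11 of the 16 fits. With the antibody Smad5 was kept in 16 of 16, Smad2 and Tgfbr3 in 15, Smurf2 in 13, and Ski, Smad3 and Tgfbr2 in 5, 4 and 3.

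Of 21 secreted antagonists and modulators, 3 rose and 1 fell with the antibody. Bmper, an extracellular BMP regulator of endothelium, rose by 1.92 ± 0.35, the chordin relative Chrdl1 by 0.46 ± 0.13 and the protease gene Htra1 by 0.88 ± 0.29, and Fstl3, which binds activin, fell by 0.35 ± 0.08 (limma adjusted p = 0.0103, 0.0317, 0.0498 and 0.0137). Fstl3 rose with cabozantinib by 0.51 ± 0.08 (adjusted p = 0.00324), so that the drugs had opposite differences on it. Fstl3 was kept in 16 of 16 fits for each drug and Bmper in 16, whereas Chrdl1 was kept in 9 and Htra1 in 1. Bmper averaged 4.71 in the group where it was lowest and Chrdl1 4.47, which is under the lowest array median, so background limits their sizes. In Combination against Placebo Chrdl1, Nbl1 and Htra3 rose by 0.91 ± 0.19, 1.44 ± 0.37 and 2.00 ± 0.46, and the decoy receptor gene Bambi fell by 1.19 ± 0.32 (adjusted p = 0.0178, 0.0314, 0.0225 and 0.0372).

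Of 22 genes known from endothelial or other cells to be induced through BMP, SMAD1/5 or ALK1, the antibody's count was 2 higher and 3 lower. Efnb2, the arterial ephrin, rose by 0.62 ± 0.12. The transcription factor gene Gata3 passed at 0.24 ± 0.07, but its group means lay between 4.63 and 4.98, about the lowest array median, so no change is read from it. Hes1 and Jag1 of the Notch pathway and the E protein gene Tcf4 fell by 0.48 ± 0.12, 0.45 ± 0.11 and 0.42 ± 0.11. The limma adjusted p values of these 5 genes were 0.0108, 0.0259, 0.0199, 0.0187 and 0.0236. Efnb2 fell by 0.89 ± 0.12 with cabozantinib (adjusted p = 0.00156) and by 1.07 ± 0.18 in Combination against AntiPD1 (adjusted p = 0.0197), with means of 5.12 in Combination, 4.67 in Cabozantinib, 6.19 in AntiPD1 and 5.39 in Placebo. The Cabozantinib mean is under the lowest array median, so background limits these sizes. The means of Efnb2 have the same order as those of Bmp2, which was chosen on its levels. The 25 endothelial genes have that order too, with list means of 6.29 in Combination, 5.95 in Cabozantinib, 7.28 in AntiPD1 and 6.44 in Placebo. Junb, an immediate early gene, rose with cabozantinib by 0.45 ± 0.10 (adjusted p = 0.0322), kept in 7 of 16 fits and lost without the 3 tumours high in muscle genes (adjusted p = 0.0683) or the 2 high in adipocyte genes (adjusted p = 0.0765), while Efnb2 was kept in 16 of 16 for each drug. Of 10 genes known to be induced through TGF-beta, Ccn1 and Col1a1 rose with the antibody by 0.41 ± 0.13 and 1.48 ± 0.44 (adjusted p = 0.0395 and 0.0332), kept in 4 and 9 of 16 fits. The lists' medians with the antibody lay between -0.12 for SMAD genes and 0.43 for TGF-beta targets, against -0.03 over all genes. Without AntiPD1 2 the counts with the antibody fell to 0 of 9 TGF-beta and activin ligand, 0 of 14 receptor, 1 of 12 SMAD, 2 of 21 antagonist, 2 of 22 BMP-induced and 0 of 10 TGF-beta-induced genes, and stayed at 2 of 13 for BMP and GDF ligands. Without the 3 tumours high in adipocyte genes 0 genes of these 7 lists passed for the antibody by limma, and 1 to 6 per list had an unadjusted p under 0.05. Of all genes 3.52% passed without AntiPD1 2 and 0% without these 3 tumours, so the latter fit cannot set the lists against other genes. In Combination against Placebo every gene of these lists named above was lost in the fit without Placebo 2 and in the fit without Combination 2. In Cabozantinib against Placebo, AntiPD1 against Placebo and Combination against Cabozantinib 0 genes of these 7 lists passed by limma, and 0 to 6 per list had an unadjusted p under 0.05.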

How the data were processed

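Total RNA, 50 ng per tumour, was hybridised to Affymetrix mouse arrays, per the labels' protocols. The values deposited by the authors are log2 signals per probe set, made with RMA and affy 1.62.0 per the submitters' processing notes. The labels do not say whether Cabozantinib mice were given IgG too. Of 45141 probe sets, 28898 were paired with 1 gene, and the brightest probe set per gene left 17097 genes. Groups were compared with lmFit and eBayes of limma 3.58.1 in R 4.3.3, in 1 model of 4 group means, with Benjamini-Hochberg adjustment over all genes and a threshold of 0.05. A difference averaged over the other drug is the mean of that drug's 2 pairwise differences. In simulated data for the antibody average, 62.7% of 67 genes changed by 0.5 and 92.5% of 67 changed by 1 were recovered, with 9 false calls. The simulated noise was independent between genes, few genes were changed, and these had means above every array median. The real tumours share variation in host tissue, so these rates do not carry over to them. Other probe sets, filters, weights, normalization, blocks and left-out tumours were tried. Arrays carry no read depth. The members and gene lists were chosen with earlier results of these data known, and genes of the lists were named where they passed. Promoter windows came from RefSeq.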

Additional observations from a re-analysis of the deposited data

Results flagged for a closer look

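Of 30 groups of 4 or 5 tumours, 10 genes each in Combination, Cabozantinib and Placebo, 4 held a tumour far from the others of its group, and chance flags about 1 in 20 groups. Smad6 was 5.79 in Cabozantinib 4, against 7.20 to 7.59 in the other 4 Cabozantinib tumours, and 2 of the 5, Cabozantinib 3 and 4, were high in muscle genes, with Smad6 at 7.20 in Cabozantinib 3. Combination 2 was low for Bmp4, at 8.66 against 9.03 to 9.10 in the other 3, and for Id1, at 10.22 against 10.78 to 10.87, and it was among the 3 tumours high in adipocyte genes. Eng was 6.64 in Combination 1, another of them, against 7.26 to 7.37 in the other 3 Combination tumours.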

How the results depend on the processing

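The counts of genes that the members are set against varied with the settings. For array weights the counts were 3059 in Combination against Placebo (1771 as reported), 71 in Cabozantinib against Placebo (44), 1822 in AntiPD1 against Placebo (5), 1441 in Combination against Cabozantinib (1), 155 in Combination against AntiPD1 (40), 730 for cabozantinib averaged (362) and 5037 for the antibody averaged (3075). A filter on dim genes gave 72 in Cabozantinib against Placebo, 1 in AntiPD1 against Placebo, 2 in Combination against Cabozantinib and 25 in Combination against AntiPD1. The mean of all probe sets gave 82 in Cabozantinib against Placebo, 8 in AntiPD1 against Placebo and 4 in Combination against Cabozantinib, and a fit of only 2 groups gave 4 and 70 in the first 2 of these and 22 in Combination against AntiPD1. Quantile normalization gave 2 in Combination against Cabozantinib, and the leading number of the titles, whose meaning the labels do not give, as a random block (consensus correlation -0.103 over 4 shared numbers) gave 1 in AntiPD1 against Placebo. The sets of left-out tumours below were chosen after seeing the data. Without the 3 tumours high in muscle genes the counts were 37 in Combination against Cabozantinib, 14 in Combination against AntiPD1 and 1613 for the antibody, and without the 2 high in adipocyte genes 23 in Cabozantinib against Placebo, 1 in AntiPD1 against Placebo, 0 in Combination against Cabozantinib, 230 for cabozantinib and 1799 for the antibody. Without the 4 tumours high in muscle genes they were 2788 in Combination against Placebo, 73 in Cabozantinib against Placebo, 11 in AntiPD1 against Placebo, 3612 in Combination against Cabozantinib, 19 in Combination against AntiPD1 and 1 for the interaction. Without the 3 high in adipocyte genes they were 5, 15, 10, 0 and 6 in the same 5 comparisons, 98 for cabozantinib and 0 for the antibody. Leaving out 1 tumour at a time gave 42 to 2290 in Combination against Placebo, 5 to 91 in Cabozantinib against Placebo, 0 to 30 in AntiPD1 against Placebo, 0 to 1955 in Combination against Cabozantinib, 13 to 50 in Combination against AntiPD1, 0 to 1 for the interaction, 158 to 443 for cabozantinib and 602 to 4258 for the antibody. Other settings kept the counts within 1.5 times. Among members, limma's adjusted p for the antibody ran from 0.0126 to 0.0915 for Bmp2, 0.00514 to 0.162 for Bmp4, 0.00339 to 0.0836 for Acvrl1 and 0.00313 to 0.0836 for Eng over 9 alternatives other than the fixed block and single left-out tumours, and from 0.00325 to 0.237 for Id1, which passed in 5 of 9. Smad7 passed for cabozantinib in 1 of 9 and Bmp4 in 7 of 9. The described Bmp2 difference for cabozantinib ran from -1.59 to -1.36 with 1 tumour left out. Small differences that did not pass changed sign, and the cause was not tested. For cabozantinib these were Bmp6 at -0.0338, Smad6 at 0.00398 without the 3 muscle tumours, Bmp6 at -0.0616, Smad6 at 0.0402 and Id3 at 0.0107 without the 4, and Acvrl1 at 0.177 and 0.0655 without the 2 and the 3 adipocyte tumours. Without those 3, Smad6 for the antibody was 0.00208, and in Combination against Cabozantinib Id1 was 0.0109 and Id3 0.00887. With 1 tumour left out Bmp6 ranged between -0.014 and 0.068 for cabozantinib, Smad6 between -0.225 and 0.000473 and Acvrl1 between -0.247 and 0.088. Of the 4 title numbers shared by 8 tumours, 3 join a tumour given antibody with one of the matching group without it. The correlations of their deviations from group means were 0.0857, 0.0719 and 0.257, and 1 of the 6 tumours correlated best with its own number. The numbers were not taken as pairs in the main fit, but 3 pairs are too few to exclude pairing. In these 3 pairs Bmp2, Bmp6, Id2, Acvrl1 and Eng were higher and Id1, Id3, Smad6 and Smad7 lower with antibody in 3 of 3, and Bmp4 was lower in 2 of 3. The title number as a fixed replicate block, added after seeing the data and with 2 residual degrees of freedom, gave 0 genes past the threshold in AntiPD1 against Placebo, 0 in Combination against Cabozantinib, 0 for the interaction and 0 for the antibody, where Bmp2 was 0.58, Bmp4 -0.34, Acvrl1 1.23 and Eng 1.05 (limma adjusted p = 0.722 each). By limma 0 of 10 members had an unadjusted p under 0.05 there for the antibody, and the share of all genes was not counted. Signal near the array median limits Bmp2 in the inhibitor groups and Bmp6 everywhere.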
